A study of Mus musculus with 6 samples.

Results

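Genes that start, carry out or block programmed cell death were examined in whole kidneys with and without Notch1 activation in the tubule. The list held 38 genes of apoptosis, necroptosis and pyroptosis, chosen by name for their place in these pathways, with earlier results of these data known. Of these, 36 were measured on a probe set with a single gene symbol, out of 19937 such genes on the array, and each gene was read from its probe set with the highest mean over the 6 arrays. Bax and Ripk1 were not analysed here. The controls were 3 littermate wild-type mice of normal genotype, and the NICD1 group was 3 samples of genotype Pax8rtTA TREICNotch1, in which Pax8-driven rtTA switches on a Notch1 intracellular domain (the active, cleaved form of the receptor) in tubule epithelial cells. The inducing agent, the length of induction, and the age and sex of the mice are not given in the sources used here. RNA came from the whole organ, so a difference can come from the tubule cells that carry the transgene, from other kidney cells or from cells that entered the tissue. Fewer cells of a type and less RNA per cell cannot be told apart. The labels do not say that the NICD1 samples came from separate animals, and the p-values measure the spread between these samples.

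Apoptosis is carried out by caspases, proteases that are kept inactive until an upstream signal assembles them on a scaffold. In the mitochondrial route, BH3-only proteins neutralise the pro-survival BCL2 proteins or activate the pore formers of the outer mitochondrial membrane, cytochrome c escapes, and APAF1 gathers caspase-9. In the death receptor route, FAS or TNF receptors recruit FADD and caspase-8, with CFLAR as a brake. When caspase-8 is held back, RIPK3 can phosphorylate MLKL, which ruptures the plasma membrane (necroptosis), and inflammatory caspases can cut gasdermin D into a membrane pore (pyroptosis). All these forms of death have been described in injured renal tubules. Transcript levels do not show whether any of the proteins was cut, phosphorylated or active.

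Notch1, the check on the labels, was 3.63 log2 higher in NICD1 (SE 0.12, limma adjusted p = 1.52e-07), from a probe set that cannot separate transgene from endogenous transcript. The mean log2 level over 8 measured kidney epithelium markers was 10.21 to 10.33 in controls and 7.64 to 8.36 in NICD1. Nphs1 lay under the array median in every NICD1 array, and Slc5a2 in NICD1 replicate 1. In the NICD1 group 7 of the 8 were lower and 1, Umod, higher. Pearson correlations of arrays across probe sets were 0.991 to 0.993 within controls, 0.986 to 0.990 within NICD1 and 0.927 to 0.945 between the groups. The median difference over all genes was 0.015 as deposited and -0.108 once arrays were centred on their medians, which changed the share of calls that were upward from 54.4% to 39.4%.

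Cell death genes were more often higher than lower in NICD1 kidneys. Of the 36 measured, 18 rose, 2 fell and 16 did not pass (limma, adjusted p under 0.05 over all genes), and 1 of the falls, Cflar, was called on only 1 of the gene's 3 probe sets. Over all 19937 genes, 32.7% were called, 17.8% as higher and 14.9% as lower. The members were brighter than genes at large, with 6 of 36 under the median of every array against 8747 of all 19937 genes. With the dimmest 40% of all genes left out, 14 of 28 members rose and 3 fell. Of all the genes kept, 3290 rose and 2866 fell, against 3551 and 2978 before the dimmest 40% were left out. The shares called among the kept genes were therefore larger than 17.8% and 14.9%. At least a 2-fold change was reached by 9 members, all upward, where 4.65% of all genes rose and 5.3% fell by that much. The members' median difference was 0.32 log2 and that of all genes 0.015. Because the list was chosen with earlier results of these data known, its distance from all genes is a description and not an independent test. The groups did not overlap for 24 members, 20 with NICD1 above and 4 with NICD1 below, and for 43.4% of all genes (23.7% above, 19.7% below). The risen genes stood on both sides of the death decision: the pro-survival genes Mcl1, Bcl2, Birc3, Birc2 and Xiap rose, as did the death-promoting Mlkl, Bak1, Pmaip1, Apaf1, Casp8 and Ripk3. In 6 of the 9 roles into which the list was divided some members changed and others did not pass, and in the other 3 (necroptosis, inhibitors of apoptosis and pore formers) all measured members rose.

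**Figure D1:**
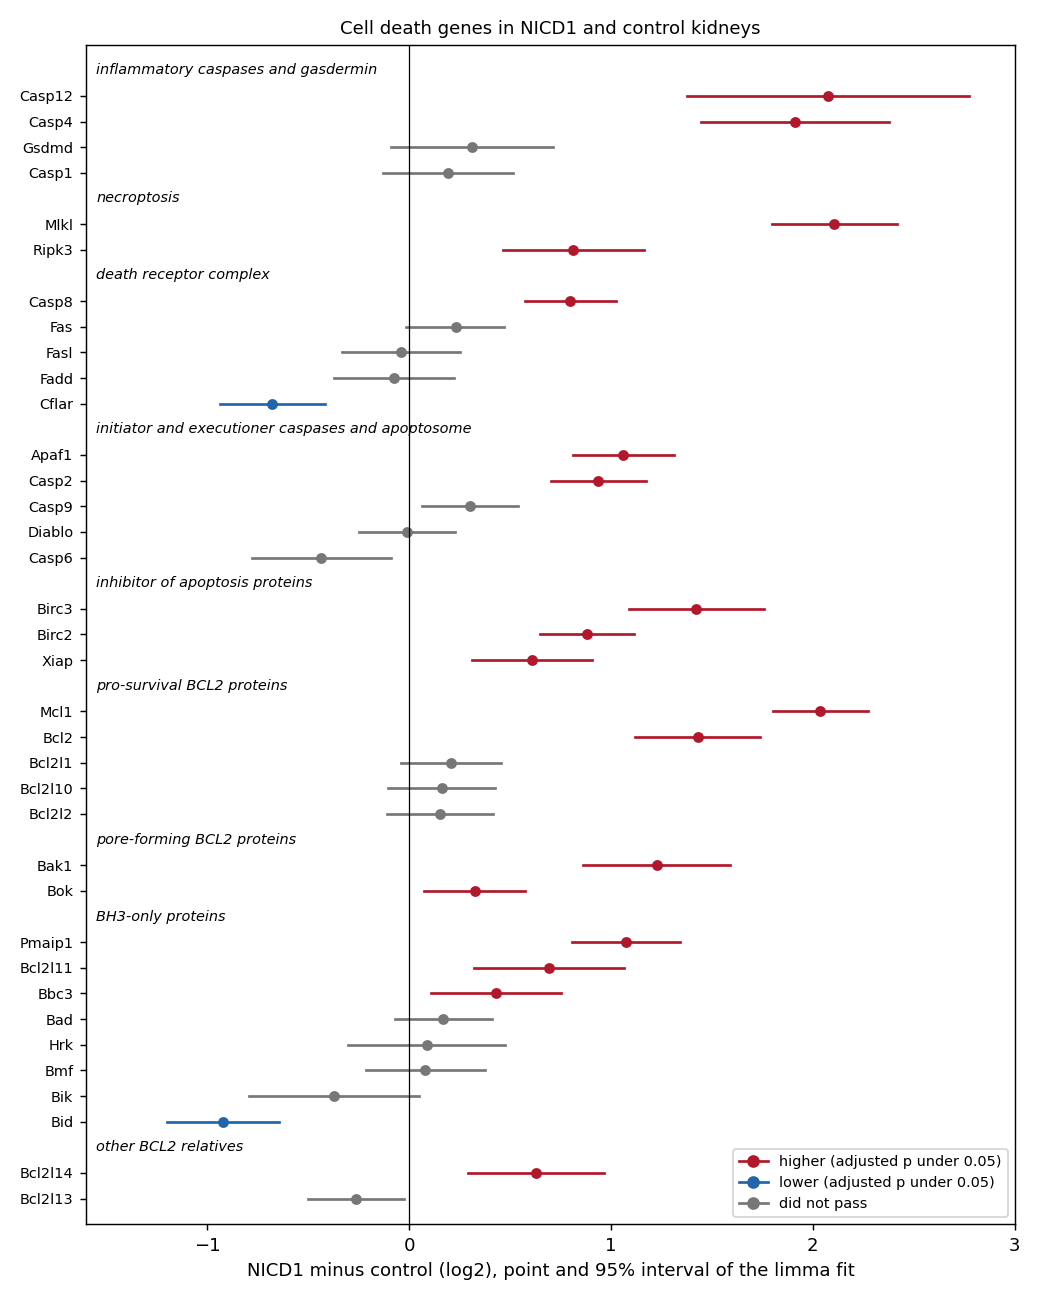
Difference between NICD1 and control kidneys (log2, horizontal axis) for the 36 measured members, grouped by role, as points with the 95% interval of the limma fit over 3 arrays a group. The 18 red genes passed as higher and the 2 blue genes, Bid and Cflar (read from its brightest probe set), as lower. The 4 largest rises, Mlkl, Casp12, Mcl1 and Casp4, come from 3 roles and lie between 1.91 and 2.11.

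**Figure D2:**
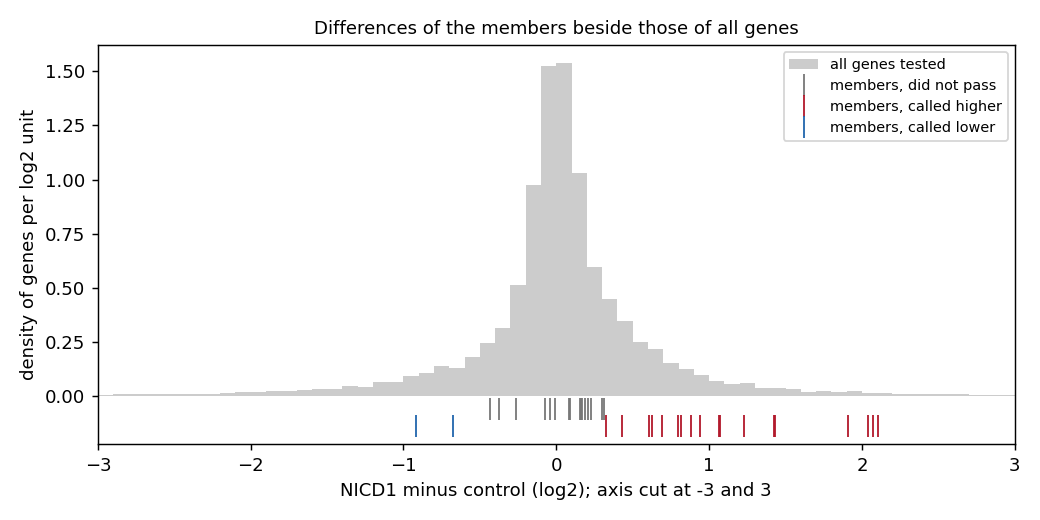
Density of the NICD1 minus control difference (log2) over all 19937 genes in grey, with the members as ticks under it, coloured by call. Most genes lie near 0, with a median of 0.015, and the members' ticks reach from -0.92 to 2.11.

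The windows before the transcription starts of 4 of the most risen genes are shown because they place the genes on the genome and let their upstream sequence be compared. RefSeq promoter windows (GRCm38.p6) were matched for 32 of the 36 measured members. Each is the 250 bases before a start, 5′ to 3′ on the gene's strand, with capitals marking matches on either strand to GTGGGAA (the core of sites for RBPJ, which brings cleaved Notch to DNA), to GGG, any 2 bases, TT, any base and CC (NF-kB type), to GAAA, any 2 bases and GAAA (interferon response type), or to TTC, any 3 bases and GAA (STAT type).
Casp4, chr9:5308599-5308848, plus strand: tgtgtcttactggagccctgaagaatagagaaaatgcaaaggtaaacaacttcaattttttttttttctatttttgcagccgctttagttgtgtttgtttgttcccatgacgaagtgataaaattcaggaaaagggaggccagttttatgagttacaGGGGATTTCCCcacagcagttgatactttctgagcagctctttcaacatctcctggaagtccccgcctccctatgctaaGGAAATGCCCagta
Casp12, chr9:5345226-5345475, plus strand: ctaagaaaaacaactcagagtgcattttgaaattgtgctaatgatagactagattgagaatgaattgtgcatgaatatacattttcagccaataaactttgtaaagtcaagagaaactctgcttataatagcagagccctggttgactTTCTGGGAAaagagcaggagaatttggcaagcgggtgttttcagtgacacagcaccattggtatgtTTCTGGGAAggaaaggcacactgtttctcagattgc
Mlkl, chr8:111338206-111338455, minus strand: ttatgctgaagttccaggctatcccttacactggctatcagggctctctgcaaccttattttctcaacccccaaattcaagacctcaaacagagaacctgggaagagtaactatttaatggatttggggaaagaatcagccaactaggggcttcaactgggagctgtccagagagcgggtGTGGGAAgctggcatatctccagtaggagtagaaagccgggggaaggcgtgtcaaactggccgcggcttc
Mcl1, chr3:95658471-95658720, plus strand: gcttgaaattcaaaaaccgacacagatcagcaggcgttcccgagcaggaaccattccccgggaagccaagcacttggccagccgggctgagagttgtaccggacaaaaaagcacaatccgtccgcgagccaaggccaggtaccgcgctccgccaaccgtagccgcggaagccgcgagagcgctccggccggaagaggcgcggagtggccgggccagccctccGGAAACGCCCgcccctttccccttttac
The Casp4 window held an overlapping pair of NF-kB type matches, GGGGATTTCC and GGGATTTCCC, the first starting 93 bases before the start, and another, GGAAATGCCC, 14 bases before it. A further RefSeq start of Casp4 puts GGGGATTTCC at 104 bases and GGAAATGCCC at 25 bases before it. Mcl1 held one such match, GGAAACGCCC, at 28 bases. The Casp12 window held TTCTGGGAA at 102 and at 36 bases before the start, and the Mlkl window GTGGGAA at 70 bases. Counting a gene when any of its windows matched, the NF-kB type letters stood in 5 of 32 members and in 4.71% of all 27025 genes with windows. The RBPJ core stood in 4 of 32 members and 6.18% of genes, the STAT type in 2 members and 8.13% of genes, and the interferon type in 0 members and 3.46% of genes. Among the 17 risen members with a window, 4 held the NF-kB type, 2 the RBPJ core, 1 the STAT type and 0 the interferon type. A gene with several windows had more chances to match, and of the 5 members with the NF-kB type all but Mcl1 had several. These are letter matches in short windows, with no measurement of binding.

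Among the genes of pyroptosis, Casp4 and Casp12 rose about 4-fold while Casp1 and Gsdmd did not pass. Casp4, the caspase that senses lipopolysaccharide inside the cell and can cut gasdermin D, stood at 3.31, 3.73 and 4.06 in control replicates 1 to 3 and at 5.96, 5.43 and 5.45 in NICD1. The groups were far apart, and the difference was 1.91 log2, or 3.76-fold (SE 0.21, limma adjusted p = 9.52e-05). Casp12, a relative associated with the endoplasmic reticulum, went from 3.49, 3.44 and 3.26 to 6.23, 5.49 and 4.70, 4.21-fold higher (2.08 log2, SE 0.31, adjusted p = 0.000698). Its NICD1 arrays spread widely (SD 0.77), with replicate 1 highest and replicate 3 lowest, but even the lowest was above every control. Casp1, the interleukin-1 converting caspase of inflammasomes, ranged from 3.32 to 3.78 in control and from 3.56 to 3.86 in NICD1 arrays, and the groups overlapped (0.19 log2, 95% interval -0.13 to 0.51, adjusted p = 0.385). Casp1, Casp4 and Casp12 are neighbours on chromosome 9. Gsdmd, the pore former itself, stood at 5.22, 4.88 and 4.71 in controls and 5.41, 4.89 and 5.45 in NICD1 (0.31 log2, 95% interval -0.09 to 0.72, adjusted p = 0.245). Its difference was 0.49 without NICD1 replicate 2 (adjusted p = 0.0532) and 0.20 without control replicate 3. With all arrays, the intervals of Casp1 and Gsdmd reach no further than 0.72, below the lower bounds of Casp4 (1.45) and Casp12 (1.38). Casp1 was under the array median in all 6 arrays, Casp4 and Casp12 in the controls, and Casp12 also in NICD1 replicate 3. Without detection calls, the control levels of these genes may be near the floor and their folds understated.

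Both measured necroptosis genes rose. Mlkl, the membrane-rupturing effector, had nearly the same low level in the controls, 3.43, 3.40 and 3.43, and reached 5.80, 5.27 and 5.52 in NICD1. This was the largest difference among the members, 2.11 log2 or 4.31-fold (SE 0.14, limma adjusted p = 4.84e-06). The controls and NICD1 replicate 2 lay under the array medians for Mlkl. Ripk3, the kinase that activates MLKL, went from 5.01, 4.65 and 4.75 to 5.72, 5.31 and 5.82, a rise of 1.76-fold (0.81 log2, SE 0.16, adjusted p = 0.00291). For Ripk3 too, the controls and NICD1 replicate 2 lay under the array medians. The groups did not overlap for either gene.

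**Figure D3:**
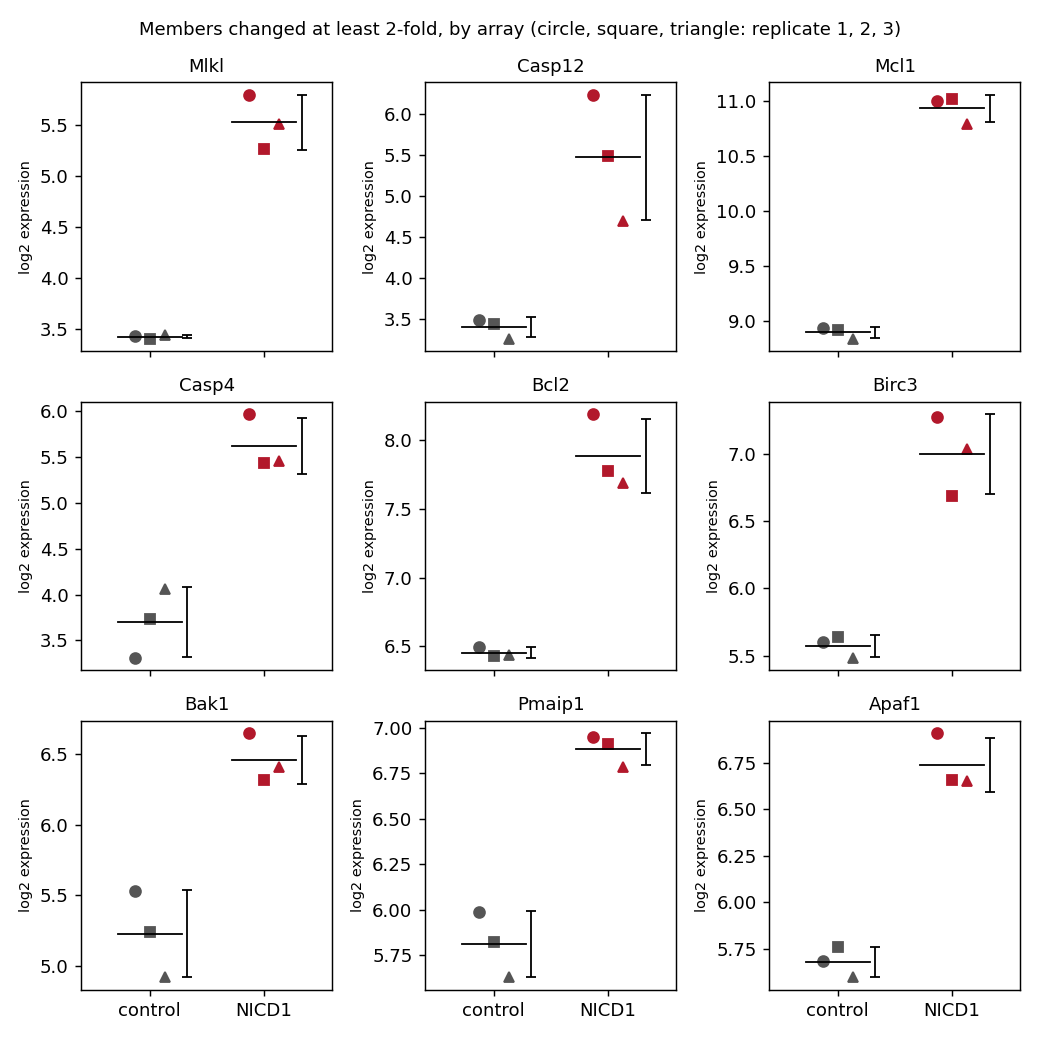
Log2 expression (vertical axis, a separate range for each gene) of the 9 members changed at least 2-fold, by array, with replicates 1, 2 and 3 as circle, square and triangle, the mean as a line and the SD (n = 3) as a bar. In all 9 the NICD1 arrays lie above the control arrays, and Casp12 shows the widest NICD1 spread, from 4.70 to 6.23.

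Of the 5 death receptor genes, Casp8 rose and Fas, Fasl and Fadd did not pass, while Cflar passed as lower on 1 of its 3 probe sets. Casp8, the initiator caspase of this route and a brake on necroptosis, lay at 7.27, 7.43 and 7.42 in controls and 8.19, 8.10 and 8.23 in NICD1. The arrays within each group were close together, and the difference was 0.80 log2 (SE 0.10, limma adjusted p = 0.000232). The receptor gene Fas was slightly higher in all NICD1 arrays (5.01 to 5.16 against 4.72 to 4.98) without passing (0.23 log2, adjusted p = 0.147). Its ligand Fasl differed by -0.04 and the adaptor Fadd by -0.08 log2, with overlapping groups.

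Cflar, the catalytically inactive relative of caspase-8 that restrains it, depended on the probe set read. The brightest of its 3 probe sets went from 8.09, 8.14 and 8.28 in controls to 7.56, 7.60 and 7.31 in NICD1 (-0.68 log2, SE 0.12, limma adjusted p = 0.00152). Cflar lies on chromosome 1 beside Casp8, and probe sets of this array are numbered along the chromosomes. The brightest probe set is numbered among genes of chromosome 3, with 0 of its 18 neighbours in number on chromosome 1, whereas 19 of 20 neighbours of each of the other two lie on chromosome 1. Whether the brightest probe set measures Cflar itself was not tested. Of the 39 member probe sets it was the only one whose neighbours lay elsewhere. Read from the second probe set, Cflar stood at 7.72, 7.67 and 7.81 in controls and 7.77, 7.61 and 6.97 in NICD1, and the groups overlapped (-0.28 log2, adjusted p = 0.325). The dimmest gave 7.30, 7.22 and 7.35 against 7.07, 7.14 and 6.63 (-0.35 log2, adjusted p = 0.0952). All 3 were lower on average and NICD1 replicate 3 was lowest in each, but only the probe set numbered among chromosome 3 genes passed. With either other probe set, 1 member rather than 2 was called lower.

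**Figure D4:**
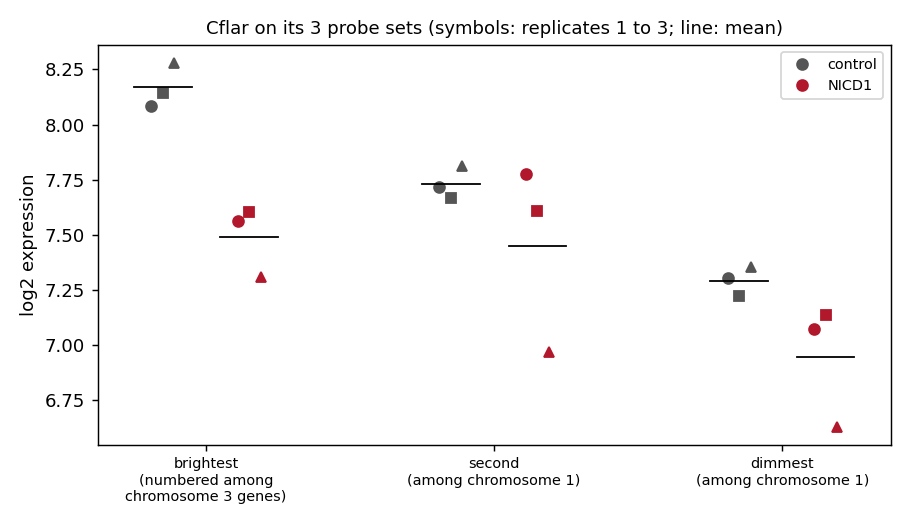
Log2 expression of Cflar in each array on its 3 probe sets, controls in grey and NICD1 in red, with the mean as a line and replicates 1 to 3 as circle, square and triangle. The groups are apart on the brightest probe set (7.31 to 7.60 in NICD1 against 8.09 to 8.28), while on the second NICD1 replicate 1 at 7.77 lies among the controls.

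Among the other initiator and executioner caspases and the apoptosome genes, Apaf1 and Casp2 rose, and Casp9, Casp6 and Diablo did not pass. Apaf1, the scaffold of the apoptosome, went from 5.68, 5.76 and 5.60 to 6.91, 6.66 and 6.65, a 2.09-fold rise (1.06 log2, SE 0.11, limma adjusted p = 7.71e-05). Casp2, a caspase linked to DNA damage and centrosome faults, went from 6.06 to 6.14 in controls to 6.93 to 7.18 in NICD1 (0.94 log2, SE 0.10, adjusted p = 0.000114). Casp9, which APAF1 activates, was higher in each NICD1 array than in any control by a small margin (7.16 to 7.29 against 6.78 to 7.02) and missed the threshold (0.30 log2, adjusted p = 0.0568). The executioner Casp6 was lower in each NICD1 array (6.14, 6.13 and 5.62 against 6.26, 6.52 and 6.40), also short of it (-0.43 log2, adjusted p = 0.0570). Casp6 passed as lower under quantile normalization (-0.52), after centring (-0.56), without the dimmest genes and without NICD1 replicate 1 (-0.52), while without NICD1 replicate 3 the difference was -0.26 (adjusted p = 0.131). Diablo, whose protein relieves caspases of their inhibitors, differed by -0.01 log2 (95% interval -0.25 to 0.23).

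All 3 inhibitor of apoptosis genes rose. Birc3, a ubiquitin ligase of TNF receptor signalling, had the largest change, from 5.60, 5.64 and 5.48 to 7.27, 6.68 and 7.03, which is 2.68-fold (1.42 log2, SE 0.15, limma adjusted p = 7.77e-05). Its close relative Birc2, adjacent to it on chromosome 9, was nearly constant in controls (6.45, 6.46 and 6.47) and stood at 7.47, 7.33 and 7.22 in NICD1 (0.88 log2, SE 0.10, adjusted p = 0.000159). The second Birc2 probe set gave a smaller rise of 0.39 log2 (adjusted p = 0.0482 over all probe sets). The relatedness of the pair leaves some uncertainty about shared probe signal. Xiap, the direct caspase inhibitor, rose from 7.09, 7.43 and 7.32 to 8.08, 7.87 and 7.72 (0.61 log2, SE 0.13, adjusted p = 0.00588).

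Among the pro-survival BCL2 genes, Mcl1 and Bcl2 rose and Bcl2l1, Bcl2l2 and Bcl2l10 did not pass. Mcl1, a short-lived guardian of the mitochondrial membrane, was tightly grouped, at 8.94, 8.92 and 8.84 in controls and 11.00, 11.02 and 10.79 in NICD1. The rise was 4.10-fold (2.04 log2, SE 0.10, 95% interval 1.80 to 2.27), with the lowest adjusted p of the members (limma, 1.56e-06). Bcl2 went from 6.50, 6.43 and 6.44 to 8.19, 7.77 and 7.69, or 2.69-fold higher (1.43 log2, SE 0.14, adjusted p = 4.74e-05). Bcl2l1, which encodes BCL-XL, was 7.79 to 8.03 in controls and 8.03 to 8.22 in NICD1, so close that the groups nearly touched (0.21 log2, 95% interval -0.04 to 0.45, adjusted p = 0.206). Bcl2l2 and Bcl2l10 overlapped between the groups, with differences of 0.15 and 0.16 log2. Bcl2l10 lay under the median of every array. The upper bounds of these 3 genes, at most 0.45, lie under the lower bounds of Bcl2 (1.12) and Mcl1 (1.80).

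Both measured pore formers passed as higher, Bak1 clearly and Bok at the threshold. Bak1, which perforates the outer mitochondrial membrane, went from 5.53, 5.24 and 4.92 to 6.65, 6.32 and 6.41, 2.34-fold higher (1.23 log2, SE 0.16, limma adjusted p = 0.000327). Bok stood at 6.01, 5.85 and 6.03 in controls and 6.26, 6.17 and 6.44 in NICD1 (0.33 log2, SE 0.11, adjusted p = 0.0497). Its call was lost under 10 of 13 alternatives, among them both other scalings (0.25 and 0.20 log2), a fit with the replicate number as a block (adjusted p = 0.0664) and the omission of any single array other than NICD1 replicate 2.

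The 8 BH3-only genes moved in different directions: Pmaip1, Bcl2l11 and Bbc3 rose, Bid fell and Bad, Bik, Bmf and Hrk did not pass. Pmaip1, whose product NOXA binds MCL1, went from 5.99, 5.82 and 5.63 to 6.95, 6.91 and 6.79, 2.11-fold higher (1.07 log2, SE 0.12, limma adjusted p = 0.000109). Bcl2l11, which encodes BIM, rose from 5.26, 5.12 and 5.42 to 6.11, 6.19 and 5.58 (0.69 log2, SE 0.16, adjusted p = 0.00961), with NICD1 replicate 3 only just above the controls. Bbc3, which encodes PUMA, passed narrowly although its groups overlapped, at 4.18, 3.91 and 3.94 against 4.16, 4.59 and 4.58 (0.43 log2, SE 0.14, adjusted p = 0.0440). The call of Bbc3 was lost with the replicate block (adjusted p = 0.0833), after centring (0.31 log2) and without control replicate 2 (0.38) or 3 (0.40) or NICD1 replicate 2 (0.36) or 3 (0.36), and the gene lay under every array's median. Bid, which carries the caspase-8 signal to mitochondria, fell from 7.06, 6.84 and 6.89 to 5.80, 6.17 and 6.05 (-0.92 log2, SE 0.12, adjusted p = 0.000370). It was the only member besides Cflar to pass as lower, and it passed under all 13 alternatives. Bik stood at 5.07, 5.81 and 5.74 in NICD1 against 5.78 to 5.98 in controls, so that only replicate 1 was far below them and the groups overlapped (-0.37 log2, adjusted p = 0.175). Bad, Bmf and Hrk differed by 0.17, 0.08 and 0.09 log2 with overlapping groups, and the signs of Bmf and Hrk turned after centring.

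Of the remaining relatives, Bcl2l14 rose from 4.12, 4.23 and 4.05 to 5.10, 4.66 and 4.53 (0.63 log2, SE 0.15, limma adjusted p = 0.00984), at levels under the median of every array. Bcl2l13, a mitochondrial protein whose gene neighbours Bid on chromosome 6, was lower in every NICD1 array (6.63 to 6.90 against 6.99 to 7.07) without passing (-0.26 log2, adjusted p = 0.0934). It passed as lower under quantile normalization (-0.29) and after centring (-0.38).

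The risen members varied among the NICD1 arrays. For 12 of the 18, replicate 1 was the highest NICD1 array, as it was for 56.7% of the 3551 genes called higher overall and for 13 of the 14 risen macrophage and dendritic cell markers. Without NICD1 replicate 1, 17 members still rose and 3 fell, and the differences of Casp4, Casp12 and Birc3 were at least 1.72, 1.70 and 1.28 log2 whichever array was left out. Of the 16 macrophage and dendritic cell markers 14 rose and 0 fell, and their mean log2 level was 4.87 to 5.01 in controls and 6.49 to 7.21 in NICD1. Those that rose included the co-receptor Cd14 (2.79 log2), the protease Ctss (3.79) and the lysozyme Lyz2 (3.94), while Aif1 (0.48) and Csf1r (-0.05) did not pass. The part of macrophages and dendritic cells in the members' rise was not tested. Of 6 neutrophil markers 1, Csf3r, rose (0.39 log2), and all 6 lay under the median of every array. Of 11 markers of T, B and NK cells, Cd8a (1.38) and Cd3e (0.30) rose, Ms4a1 fell (-0.45) and 8 did not pass. Of these 11 markers 10, among them Cd3e and Ms4a1, lay under the median of every array. Among 6 endothelial markers 4 fell, including Tek (-1.77), Kdr (-1.54) and Tie1 (-0.65). Kidney epithelium markers were also lower, with Slc12a1 at -2.72, Slc34a1 at -4.73 and Slc5a2 at -4.48 log2, and whether Bid moved with the loss of these transcripts was not tested.

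Further genes of the same pathways moved both ways. Among the 44 with a value, 12 were called higher and 9 lower while 23 did not pass, and their median difference was 0.09 log2. Over all genes, 17.8% were called higher and 14.9% lower, and the smaller lists below are to be read beside those shares. Of 13 death receptor and adaptor genes 7 rose and 1 fell, with Traf2, the adaptor that carries BIRC2 and BIRC3 to the receptor, higher by 0.997 log2, the TNF receptor Tnfrsf1a by 1.02, the TRAIL receptor Tnfrsf10b by 0.92 and the ubiquitin editor Tnfaip3 by 1.30. Of 15 further caspase, nuclease and mitochondrial genes 1 rose and 4 fell. The risen gene was the mitotic regulator Birc5 (4.28 to 4.54 in controls, 5.20 to 5.47 in NICD1), and the fallen ones included Aifm1, a mitochondrial flavoprotein (-0.99), the channel Vdac1 (-0.84) and Bnip3 (-1.30). Of 16 inflammasome and necroptosis genes 4 rose and 4 fell, among them the adaptor Pycard (0.75) and the sensor Nlrp1a (0.81) upward and Gsdme (-0.53) and the sensor Nlrc4 (-0.87) downward, and 10 of the 16 lay under the median of every array.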

How the data were processed

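Whole-kidney total RNA of 6 samples was hybridised to 1 Affymetrix array each. Per the labels' protocols, the authors imported the raw files into GeneSpring and normalized them with RMA16, and the deposited values are log2 expression per probe set. This brings the arrays towards a shared distribution and compresses dim genes. Array medians over genes still differed, at 5.259 to 5.294 in controls and 5.384 to 5.412 in NICD1. Array means over genes were 5.42 to 5.43 in both groups. No software version, detection calls or scan batches are given in the sources used here. The number of arrays limits the precision.

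Of 34760 probe sets, 6573 numbered below the lowest annotated one were left out. The platform annotation gave 21640 of the rest 1 symbol, 1321 several and 5226 none. Each gene took its brightest single-symbol probe set. Differences were fitted in R 4.3.3 with limma 3.58.1 (lmFit, eBayes, two-sided, Benjamini-Hochberg over all 19937 genes, threshold 0.05), and differences are NICD1 minus control. The procedure was tested on simulated data with independent noise and far fewer changed genes than were called here. That test does not cover shared array effects or a shift between the groups. Same-numbered replicates showed no shared deviation over all genes, which does not exclude pairing for some genes. The members and lists were chosen with earlier results of these data known. All members are named or counted, with up to 4 genes of each wider list and up to 3 of each marker list by lowest p. The alternatives were a probe set mean, 2 scalings, a filter on dim genes, a trended robust variance, the replicate block, a threshold of 0.01 and leaving out each array. Reading Cflar from its other probe sets was added after seeing the data.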

Additional observations from a re-analysis of the deposited data

How the results depend on the processing

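Of the 20 member calls, 17 held under every alternative setting that kept the gene, 16 of them higher and 1, Bid, lower. The exceptions were Bok, Bbc3 and Cflar, the last lost only with its other probe sets. The count of risen members was 16 to 18 except after leaving out the dimmest 40% of genes, which removed 8 members and left 14, with Casp9 newly among them. The count of fallen members was 4 under quantile normalization and 4 after centring, where Casp6 and Bcl2l13 joined, and 1 with either other Cflar probe set. With the replicate number as a block, 16 members rose and 2 fell, and Bok and Bbc3 were lost. Over all genes, deviations of same-numbered arrays from their group means correlated at -0.07, -0.01 and -0.07. A correlation over all genes cannot exclude pairing that touches only some, and the block lowered the SE of some members and raised that of others. Signs turned only for members that had not passed. Bmf was -0.045 under quantile normalization and -0.042 after centring, and Hrk -0.036 after centring. Leaving out each array in turn, Diablo ranged from -0.089 to 0.041, Fadd from -0.178 to 0.025, Fasl from -0.131 to 0.068 and Hrk from -0.074 to 0.224. The cause was not tested.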
